A study of Mus musculus with 4 samples.

Results

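Genes of the B7 family and related costimulatory and coinhibitory molecules were compared between CD8α+ and CD8α− dendritic cells of the mouse spleen. The 10 genes were Cd80, Cd86, Cd83, Icosl, Cd274, Pdcd1lg2, Btla, Havcr2, Cd200 and Cd200r1, chosen by name, out of 18193 genes that the array annotation names. They were read by 16 probe sets that carry one of these symbols and no other, out of 45037. CD8α+ and CD8α− cells came from spleens of C57BL/6 mice, and each population was measured on 2 Affymetrix Mouse Genome 430 2.0 arrays, 4 in all. The labels name no treatment, genetic change, age or sorting scheme, and do not say whether the arrays of a population came from separate animals. What the p-values measure is thus the spread between these arrays alone, which may be technical.

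A T cell that meets its antigen on a dendritic cell also reads a second set of signals from the surface of that cell. CD80 and CD86 bind the activating receptor CD28 and the inhibitory receptor CTLA-4, ICOSL binds ICOS, and the ligands encoded by Cd274 (PD-L1) and Pdcd1lg2 (PD-L2) bind the inhibitory receptor encoded by Pdcd1. Other members act on the dendritic cell itself: the proteins of Btla, Havcr2 (TIM-3) and Cd200r1 are inhibitory receptors. CD200 is a ligand, that of CD200R1. CD83 marks mature dendritic cells and keeps CD86 and MHC class II at the cell surface. In spleen, CD8α+ dendritic cells are the type 1 conventional cells, known for cross-presentation, and CD8α− cells are mostly type 2.

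All values are MAS5 signals, 1 per probe set and array. Since the deposited signals were not on a common scale, the arrays were quantile normalized, and "normalized signal" below means the value after that step. Differences are log2 normalized signal, CD8α+ minus CD8α−, given ± the limma fit's standard error, with n = 2 arrays per population. A probe set counted as above background on an array when it exceeded the highest Bacillus control there, a normalized signal of 21.8 to 34.5 over the arrays. CD8α− replicate 2 stood apart from the rest. Its deposited signals were the dimmest, with a median of 17.4 against 22.9 to 35.1 on the other arrays, and its Gapdh control read 10.7 times more at the 3′ than at the 5′ end, against 1.53 to 2.02 times. Its Actb control went the other way, with a 3′ to 5′ ratio of 0.759 against 1.62 to 1.69. Over 22519 tested probe sets the CD8α− arrays differed by more than 2-fold in 32.2%, and the CD8α+ arrays in 8.47%.

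Most lineage markers followed the labels. On its brightest probe set Cd8a was higher in CD8α+ cells by at least 69.4-fold. Of 9 tested type 1 markers 8 were brighter and 0 dimmer at an unadjusted p under 0.05, and of 8 type 2 markers 6 were dimmer and 0 brighter. All 8 general dendritic cell markers, Flt3, Zbtb46, Itgax and H2-Ab1 among them, were above background on every array. These are bulk RNA samples, so fewer cells of a type and less RNA per cell cannot be told apart.

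Most of the costimulatory genes were read in both populations, and of the probe sets that stand for a gene those of Btla and Icosl differed most, in opposite directions. Btla was 4.06-fold brighter and Icosl 2.55-fold dimmer in CD8α+ cells. Cd83, Cd86 and Cd200 had differences of -0.02, -0.05 and 0.11, and Cd274 and Havcr2 were moderately dimmer in CD8α+ cells without passing a threshold. Cd200r1 was not above background on any array on either of its probe sets. It was the gene left out by the filter on dim probe sets, so 9 of the 10 genes and 14 of the 16 probe sets were tested.

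No member passed an adjusted p of 0.05 over all probe sets, where limma called 0 of 10532 genes (0%), the lowest adjusted p being 0.115. At an unadjusted p under 0.05 limma called 1680 of the 10532 genes, with 7.13% of the genes brighter and 8.82% dimmer in CD8α+ cells. Of the 9 tested members 1, Btla, was brighter at that level and 1, Icosl, was dimmer. The populations did not overlap for 4 members, Btla (higher, as for 25.6% of all genes) and Icosl, Cd274 and Havcr2 (lower, as for 28.3%), which is 4 of 9 beside 53.9% of all genes. By probe set, 1 of 14 was brighter and 1 dimmer at unadjusted p, beside 7.75% and 7.79% of all probe sets, and 7 of 14 did not overlap, beside 52.3%. The median difference of the 9 was -0.05, beside -0.02 for all genes tested. These shares are near those of all genes.

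**Figure D1:**
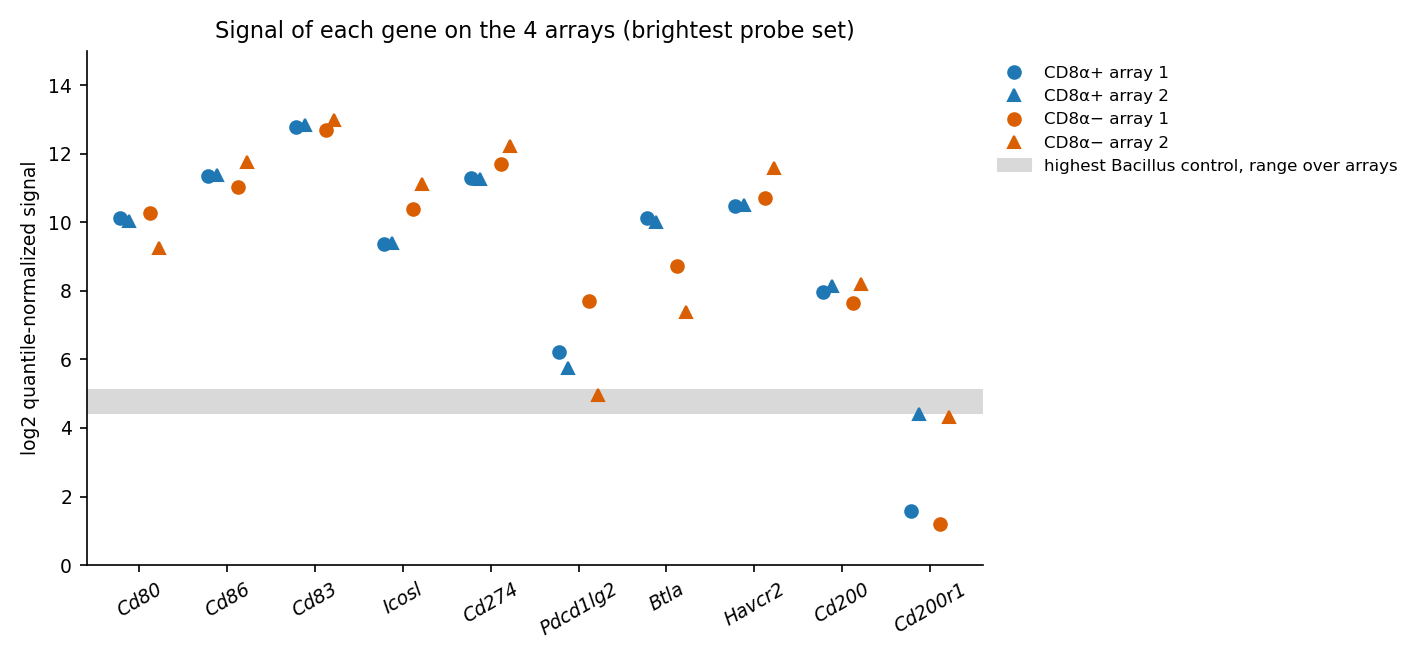
Log2 quantile-normalized signal (vertical axis) of the brightest probe set of each gene on each array, CD8α+ in blue and CD8α− in orange, circles for replicate 1 and triangles for replicate 2, with the highest Bacillus control over the arrays as a grey band. The CD8α+ arrays lie close together for every gene except Pdcd1lg2 and the unread Cd200r1, while the CD8α− arrays lie apart by most for Pdcd1lg2 and Btla among the 9 tested genes.

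Btla encodes an inhibitory receptor of the immunoglobulin superfamily that binds the TNF receptor relative HVEM. Its deposited signals were 1521 and 1456 on the CD8α+ arrays and 448 and 82.4 on CD8α− replicates 1 and 2. After normalization they were 1123 and 1037 against 424 and 166. Both CD8α+ arrays were thus higher than both CD8α− arrays, and all 4 arrays were above background. The difference was 2.02 ± 0.54, which passed the unadjusted threshold, with limma adjusted p = 0.237.

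The size of the Btla difference depended on which CD8α− array it was taken against. Against CD8α− replicate 1 the CD8α+ arrays were higher by 1.40 and 1.29, and against replicate 2 by 2.75 and 2.64. Without CD8α− replicate 2 the fitted difference was 1.35 (adjusted p = 0.0981), and without CD8α− replicate 1 it was 2.70 (adjusted p = 0.0432). In any fit with 1 CD8α− array, here and below, the spread rests on the close CD8α+ pair alone. B cells carry Btla as well. The summed normalized signal of 11 B cell markers was 398 and 407 in CD8α+ cells and 456 and 520.3 in CD8α− cells, and 7, 6, 6 and 5 of the 11 were above background on the arrays in that order. Cd79b, Blk, Cd22, Ms4a1, Fcrla and Ebf1 were above it on both CD8α+ arrays, and Pax5, Vpreb3 and Fcer2a on 0 arrays. The part of B cells in the Btla difference was not tested. Of the 6 B cell markers tested, Ms4a1 was brighter in CD8α+ cells (1.45 ± 0.31) and Blk dimmer (-1.90 ± 0.33) at unadjusted p.

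Among all tested genes, the 3 whose log2 signals, centred on their own mean, lay closest to those of Btla over the 4 arrays were Tmem231 at a Euclidean distance of 0.10, Pptc7 at 0.15 and Timm17b at 0.17. Tmem231 was above background on 0 CD8α− arrays and Timm17b on 1, so their distances rest partly on readings within background or at the floor. Pptc7 was above it on all 4 arrays and read 718 and 744 against 302 and 108 in normalized signal.

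Icosl encodes the ligand of ICOS, which supports helper T cells. Its brighter probe set had deposited signals of 920.0 and 978 on the CD8α+ arrays and 1415 and 1209 on the CD8α− arrays, and normalized signals of 664 and 679 against 1328 and 2213. Both CD8α+ arrays were lower than both CD8α− arrays. The difference was -1.35 ± 0.39, which passed the unadjusted threshold, with limma adjusted p = 0.252. It was -0.98 without CD8α− replicate 2 (adjusted p = 0.113) and -1.72 without CD8α− replicate 1 (adjusted p = 0.0455).

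The other Icosl probe set read 19.8 to 25.1 in deposited signal and was not above background on any array, so it gives no second reading of the gene. Averaging it with the brighter one took the difference to -0.72, which did not pass the unadjusted threshold. ICOSL is also known on macrophages and B cells. The summed normalized signal of 12 macrophage markers was 1685 and 1751 in CD8α+ cells against 2631 and 3991 in CD8α− cells, and that of 7 monocyte markers 4785 and 4664 against 6859.6 and 7394. Cd68 was the brightest of the 12 macrophage markers on each array, at 654 and 583 against 1216 and 2014. Above background were 6 and 9 of the 12 on the CD8α+ arrays and 6 and 8 on the CD8α− arrays. Of 7 tested macrophage markers 4 were dimmer and 1, Vcam1 (2.48 ± 0.56), was brighter in CD8α+ cells at an unadjusted p under 0.05. Of 7 monocyte markers 1 was dimmer and 0 were brighter. The part of these cells in the Icosl difference was not tested.

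The upstream sequences of the members at the ends of this range, Btla and Icosl, are shown with that of Havcr2. Btla and Havcr2, both inhibitory receptors, held the same short motif close to the start of the gene. The sequences of Icosl, Cd80, Cd274, Pdcd1lg2 and Cd200 did not. The differences of Btla and Havcr2 were in opposite directions, 2.02 and -0.65, and a link of the motif with them was not tested. Of the 10 genes, 7 were matched in the RefSeq promoter table of GRCm38.p6, and Cd83, Cd86 and Cd200r1 were not matched. Each line gives the 250 bases before the annotated start, 5′ to 3′ on the strand of the gene, with motif matches in capitals.
Btla, chr16:45224087-45224336, plus strand: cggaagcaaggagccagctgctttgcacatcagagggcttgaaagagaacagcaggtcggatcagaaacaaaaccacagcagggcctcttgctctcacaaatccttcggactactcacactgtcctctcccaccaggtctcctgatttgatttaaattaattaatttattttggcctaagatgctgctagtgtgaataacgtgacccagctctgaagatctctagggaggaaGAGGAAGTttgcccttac
Havcr2, chr11:46454681-46454930, plus strand: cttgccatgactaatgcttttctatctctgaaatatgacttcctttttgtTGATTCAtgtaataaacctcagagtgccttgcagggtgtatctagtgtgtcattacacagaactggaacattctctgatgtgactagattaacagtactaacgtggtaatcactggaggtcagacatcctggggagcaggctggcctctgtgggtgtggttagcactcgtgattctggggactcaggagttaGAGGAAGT
Icosl, chr10:78069118-78069367, plus strand: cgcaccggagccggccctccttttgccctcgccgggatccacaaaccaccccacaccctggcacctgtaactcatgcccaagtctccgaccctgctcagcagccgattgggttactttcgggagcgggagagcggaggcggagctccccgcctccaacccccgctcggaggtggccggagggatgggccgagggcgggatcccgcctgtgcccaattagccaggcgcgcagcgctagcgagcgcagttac

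The motifs, chosen with these sequences already seen, were searched on both strands of 250 bases before each of 32851 annotated starts. The ETS core GAGGAAGT, of the kind bound by PU.1, was found upstream of Btla and Havcr2, starting 18 and 8 bases before the start, and in 2.44% of all promoters. The AP-1 site TGANTCA was found upstream of Havcr2 and Cd80 and in 6.75% of promoters. An IRF repeat, GAAA and GAAA with 2 bases between (2.98% of promoters), an ETS-IRF composite, GGAA and GAAA with 2 bases between (2.3%), the STAT site TTCNNNGAA (7.02%) and a κB site, GGG, 2 bases, TT, 1 base and CC (4.11%), were in 0 of the 7 windows. The ETS core and the composite share the letters GGAA, and the composite and the IRF repeat the letters GAAA, so that matches can overlap. The Icosl window was 68.8% G and C, those of Btla and Havcr2 47.2% and 44.8%, and the median window 52.4%. A match describes letters in this window and does not show binding.

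Of the activating B7 ligands, Cd80 was read by 4 probe sets that did not give one answer. On the brightest the normalized signals were 1104 and 1053 in CD8α+ cells against 1233 and 604 in CD8α− cells, a difference of 0.32 ± 0.46, and the populations overlapped. On the next 2 by brightness the CD8α+ arrays lay below both CD8α− arrays, with 272 and 296 against 362 and 565 (-0.67 ± 0.37), and 244 and 244 against 449 and 252 (-0.46 ± 0.41). On the dimmest they lay above, at 72.5 and 33.8 against 29.8 and 7.62 (1.71 ± 0.81), where CD8α− replicate 2 did not exceed background. None of the 4 had an unadjusted limma p under 0.05. No direction is therefore given for Cd80.

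Cd86, the other ligand of CD28, was read by a pair of probe sets of which the brighter gave 2590 and 2633 against 2104 and 3472, a difference of -0.05 ± 0.39. The CD8α− arrays lay on either side of the CD8α+ pair. The second gave 2082 and 2166 against 2288 and 1191, a difference of 0.36 ± 0.44. The 2 Cd86 probe sets thus differed in how they read CD8α− replicate 2: its deposited signals were 2045 and 592, where CD8α− replicate 1 had 2193 and 2366. That array also had the highest 3′ to 5′ ratio of Gapdh and the lowest of Actb, whose part in this was not tested.

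Cd83 was bright on each array, with normalized signals of 7071 and 7346 in CD8α+ cells and 6589 and 8053 in CD8α− cells. Its difference was -0.02 ± 0.32 (limma adjusted p = 0.986), and the arrays of the populations overlapped. Its standard error was the smallest among the tested probe sets of the members. Cd83 lay at percentiles 99.86 to 99.97 of the arrays, where quantile normalization leaves little room to differ. The small difference and standard error are thus partly set by that step and are not taken as a sign of equality. Deposited signals were 7834 and 8261 against 6350 and 6746.

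**Figure D2:**
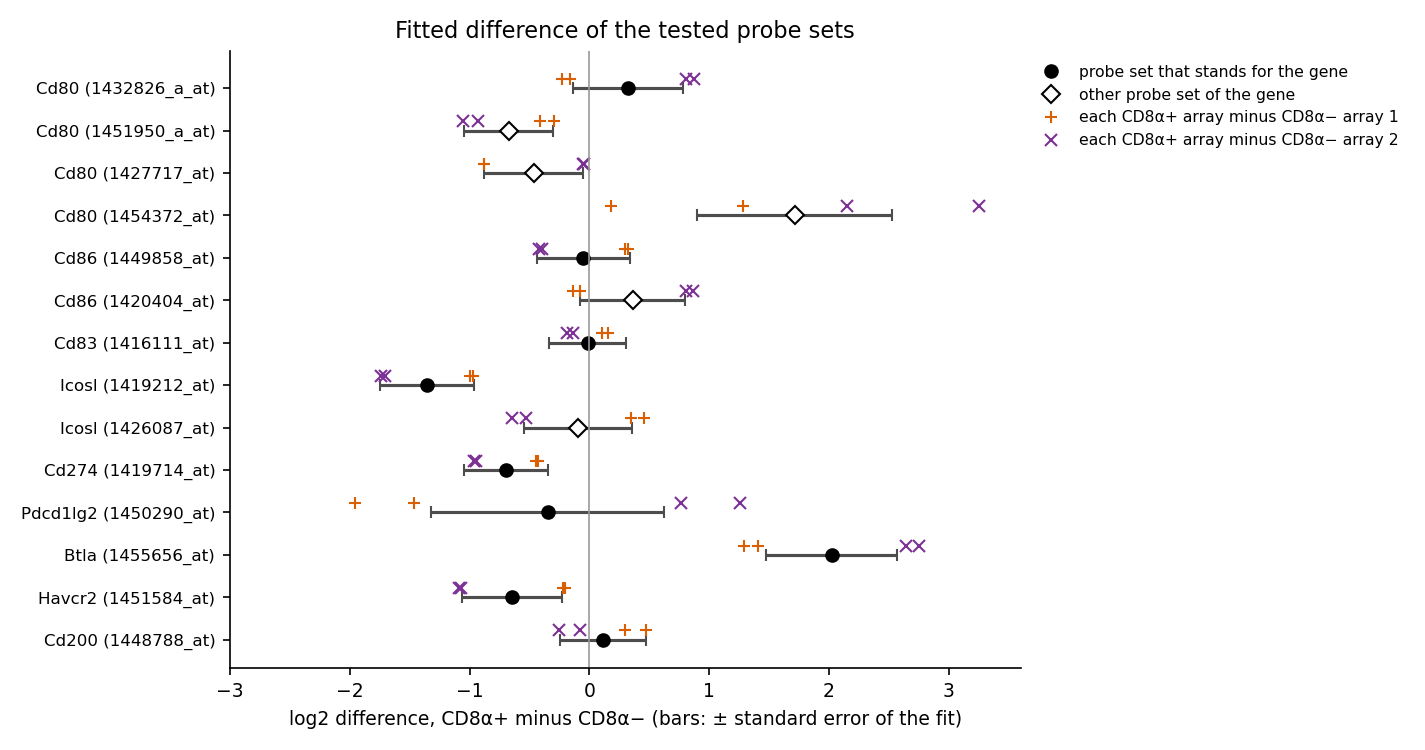
Log2 difference between CD8α+ and CD8α− arrays (horizontal axis) for the 14 tested probe sets, filled circles for the probe set that stands for a gene, open diamonds for its others, bars for ± the standard error of the fit, plus signs and crosses for each CD8α+ array minus CD8α− replicate 1 and minus replicate 2. Btla (2.02) and the brighter Icosl probe set (-1.35) lie on one side of 0 against both CD8α− arrays. So do Cd274, Havcr2 and each Cd80 probe set but the brightest. Pdcd1lg2 lies on opposite sides, as do Cd83, Cd200, the Cd86 probe sets, the brightest Cd80 and the dimmer Icosl probe set.

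The ligands of the inhibitory receptor PD-1 are encoded side by side in the RefSeq annotation of GRCm38.p6, Cd274 followed by Pdcd1lg2, and their readings differed in kind. Cd274 gave normalized signals of 2482 and 2448 in CD8α+ cells against 3331 and 4773 in CD8α− cells. Both CD8α+ arrays were lower, by -0.69 ± 0.35 (limma adjusted p = 0.407). Its deposited signals were 3233 and 3237 against 3514 and 3273, so that before normalization the arrays lay close together. With the spread modelled by an intensity trend Cd274 passed the unadjusted threshold.

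Pdcd1lg2 gave 75 and 53.3 in CD8α+ cells and 207 and 31.3 in CD8α− cells. One CD8α− array was the highest of the 4 and the other, which did not exceed background, the lowest. The difference was -0.35 ± 0.97 (limma adjusted p = 0.874), with the largest standard error among the tested probe sets of the members. It was -1.71 with CD8α− replicate 2 left out and 1.01 with replicate 1 left out, so 1 array decided the direction, and no direction is given for Pdcd1lg2.

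Of the inhibitory receptors beside Btla, Havcr2 encodes TIM-3, which binds galectin-9 and phosphatidylserine. Its normalized signals were 1428 and 1449 in CD8α+ cells against 1665 and 3043 in CD8α− cells. Both CD8α+ arrays were lower, and most of the gap lay in CD8α− replicate 2. The difference was -0.65 ± 0.42 (limma adjusted p = 0.492). Leaving out CD8α− replicate 2 gave -0.21, and leaving out replicate 1 of that population -1.08. With the deposited signals the direction turned, with 1897 and 1997 against 1749 and 1734.

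Cd200, next to Btla among the protein-coding genes of the annotation, encodes the ligand of the inhibitory receptor CD200R1. It read 249 and 280.5 in CD8α+ cells against 202 and 296 in CD8α− cells, a difference of 0.11 ± 0.36 (limma adjusted p = 0.891), and the populations overlapped. On the deposited scale they did not, at 342 and 403 against 217 and 139. Cd200r1 itself read 2.8 and 19.5 against 4.2 and 13.8 in deposited signal on its brighter probe set and 21.0 and 6.8 against 3.8 and 2.8 on the other. No fold is given, since both populations were within background.

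How the arrays are brought to one scale decided several of these directions. The median of all genes stood at -0.02 after quantile normalization, 0.67 with the signals as deposited, -0.18 with a common trimmed mean and 0.69 with median centring. Btla was brighter in CD8α+ cells under each, by 2.02, 2.95, 2.14 and 2.96, and Icosl dimmer under each, by -1.35, -0.46, -1.27 and -0.46. With the signals as deposited and with median centring Icosl lost its unadjusted call. Cd80 (1.29) and Cd200 (1.10) had an unadjusted limma p under 0.05 with median centring.

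Taken relative to the median of all genes, the differences of Btla were 2.04, 2.28, 2.32 and 2.27 in the same order. Those of Icosl were -1.33, -1.13, -1.09 and -1.15, those of Cd274 -0.68, -0.74, -0.70 and -0.75, and those of Havcr2 -0.63, -0.51, -0.47 and -0.52. Cd83, at 0.00, -0.37, -0.33 and -0.39, moved from equal to below that median, and Cd200, at 0.13, 0.43, 0.47 and 0.41, was above it. The last 3 scalings multiply each array by a constant, so that their relative values must nearly coincide, and only quantile normalization could give another value.

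**Figure D3:**
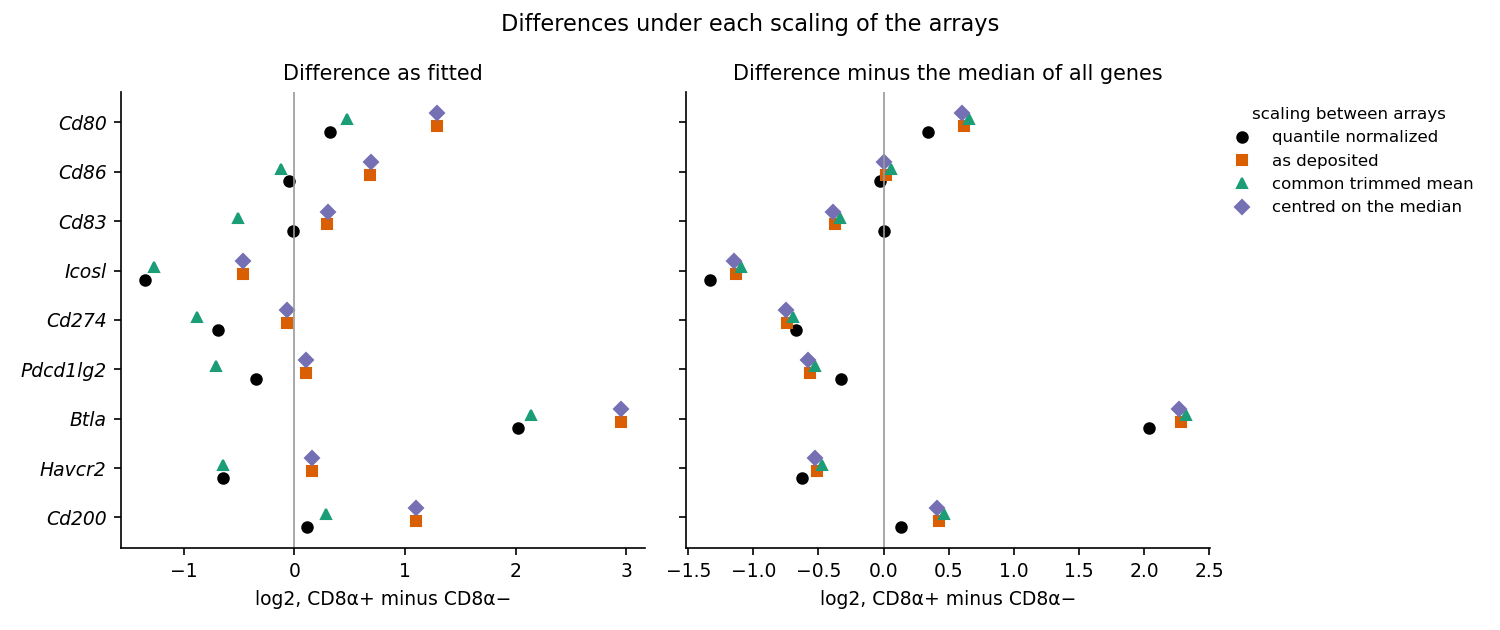
Log2 difference between CD8α+ and CD8α− cells (horizontal axes) of the 9 tested genes under 4 scalings of the arrays, as fitted on the left and minus the median of all genes on the right. Btla stays to the right of 0 and Icosl to the left in both panels, while Cd83, Cd86, Havcr2 and Pdcd1lg2 change sides in the left panel.

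The partners of these molecules were followed in 7 further lists. Their counts, and those of the cell type markers, stand beside 7.13% of all genes brighter and 8.82% dimmer in CD8α+ cells at unadjusted p. Over all genes 1361 of 10506 passed in either direction with the signals as deposited. Of 6 other B7 family genes on the array 2 were tested, and neither passed an unadjusted p of 0.05: Vsir, the ligand and receptor VISTA, read 69.4 and 66.9 against 90.7 and 99.8 (-0.48 ± 0.31). Of 7 tested receptors that T cells carry, not all of them for these ligands, 2 were dimmer and 0 brighter in CD8α+ cells at that level, with a median of -0.67. They were Icos (-1.12 ± 0.33), the receptor of ICOSL, at 44.2 and 55.8 against 101 and 116, and the MHC class II receptor Lag3 (-1.05 ± 0.34), at 60.5 and 70.1 against 117 and 155. Ctla4 (-0.48 ± 0.38) and Pdcd1 (-0.67 ± 0.52) did not pass. Beside these, 5 of 9 natural killer cell markers were dimmer in CD8α+ cells, with summed normalized signals of 1081 and 1254 against 4117 and 2641, and 0 of 9 T cell markers passed in either direction, with sums of 609.7 and 845 against 666 and 683. The part of these cells was not tested. With the signals as deposited 0 of the 7 receptors passed, and their median was -0.50 beside 0.67 for all genes. On that scale 3 natural killer cell markers were dimmer and 1 brighter, and 1 T cell marker was brighter.

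A list of ligands of Btla, Havcr2 and the nectin-binding receptors, with other TIM genes and the Cd47 and Sirpa pair, had a median of -0.96. Sirpa (-1.81 ± 0.84), which did not pass, is also among the type 2 markers used above. Of the 10 tested genes of the list 1 was brighter and 3 were dimmer, beside 7.13% and 8.82% of all genes. Beside it, 4 of 7 tested neutrophil markers were dimmer in CD8α+ cells (summed normalized signals of 7042 and 7651 against 14636 and 11799.5), as were 4 of 7 macrophage and 5 of 9 natural killer cell markers. The macrophage marker Vcam1 was brighter (2.48 ± 0.56). The part of these cells in the list was not tested. Tnfsf14 (LIGHT), which binds HVEM as BTLA does, was dimmer (-2.91 ± 0.53), at 37.2 and 30.7 against 395 and 163. Ceacam1 (-2.22 ± 0.34), at 67.4 and 65.8 against 265 and 365, and Lgals9 (galectin-9, 2.01-fold), at 59.5 and 46.6 against 123 and 91.0, both reported ligands of TIM-3, were dimmer as well. Havcr1, another TIM gene, went the other way, higher in CD8α+ cells by at least 2.78-fold, at 90.3 and 83.8 against 21.0 and 19.8, both within background. Tnfrsf14, which encodes HVEM, was not above background on any array. With the signals as deposited 2 were brighter (Havcr1 and Timd4) and 3 dimmer (Tnfsf14, Ceacam1 and Nectin3), Lgals9 (-0.45) did not pass, and the median of the list was -0.26. Nectin3 was above background only on CD8α− replicate 2, at normalized signals of 4.75 and 21.5 against 25.1 and 89.9. On the deposited scale 1 neutrophil, 2 macrophage and 3 natural killer cell markers were dimmer, and 1 macrophage and 1 natural killer cell marker brighter.

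In the CD200 receptor family, Cd200r4 was the 1 gene tested of 2 on the array, at 4.07 and 13.3 against 20.9 and 57.4. Its reading on CD8α− replicate 1 was within background, as were those on the CD8α+ arrays, so no fold or direction is given for Cd200r4. It was above background only on CD8α− replicate 2, through which it reached the filter. It did not pass without that array. Of 6 tested TNF family costimulatory genes 1 was dimmer and 1 brighter, beside 8.82% and 7.13% of all genes, with a median of -0.43. Tnfsf9, the ligand of 4-1BB, read 143 and 177 against 562 and 393 (-1.56 ± 0.36), and Tnfrsf4 (OX40) 97.0 and 73.2 against 48.5 and 22 (1.37 ± 0.51), the last reading within background. Cd40, the receptor through which T cells license dendritic cells, did not pass (-0.51 ± 0.33). With the signals as deposited Tnfsf9 stood at -0.60, 0 of the 6 genes passed, and the median turned to 0.15.

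Among 8 adaptors of the inhibitory receptors 2 were dimmer and 0 brighter in CD8α+ cells, beside 8.82% and 7.13% of all genes, with a median of -0.12. They were Ptpn6, the phosphatase SHP-1 recruited by BTLA, at 305 and 305 against 607 and 929 (-1.30 ± 0.37), and Dok2, at least 1.74-fold dimmer, at 22.7 and 19.0 against 53.5 and 38.3, with both CD8α+ readings within background. The inositol phosphatase Inpp5d (0.99 ± 0.42) did not pass. With the signals as deposited 0 of the 8 passed, and the median turned to 0.71, near the 0.67 of all genes.

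Of 15 tested genes of dendritic cell maturation, the state that CD80, CD86 and CD83 mark, 2 were brighter and 1 dimmer in CD8α+ cells, beside 7.13% and 8.82% of all genes, with a median of 0.18. Bcl2l14, a Bcl2 family gene, was brighter by at least 13.2-fold, at 410.2 and 412 against 24.9 and 12.3, both within background, and the chemokine Ccl22 8.55-fold brighter (3.10 ± 0.42), at 968 and 966 against 152 and 84.2. The NF-κB subunit Relb was dimmer (-1.03 ± 0.32), at 471 and 557 against 966 and 1134, and stood at -0.07 with the signals as deposited. On that scale 4 of 14 tested genes were brighter and 0 dimmer, beside 1361 of 10506 genes in either direction. The median of the list was then 0.85, beside 0.67 for all genes. The migration receptor Ccr7 (-0.24 ± 0.37), the actin bundler Fscn1 (1.87 ± 1.18) and Marchf1, the ubiquitin ligase that removes CD86 from the surface (1.05 ± 0.43), did not pass.

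**Figure D4:**
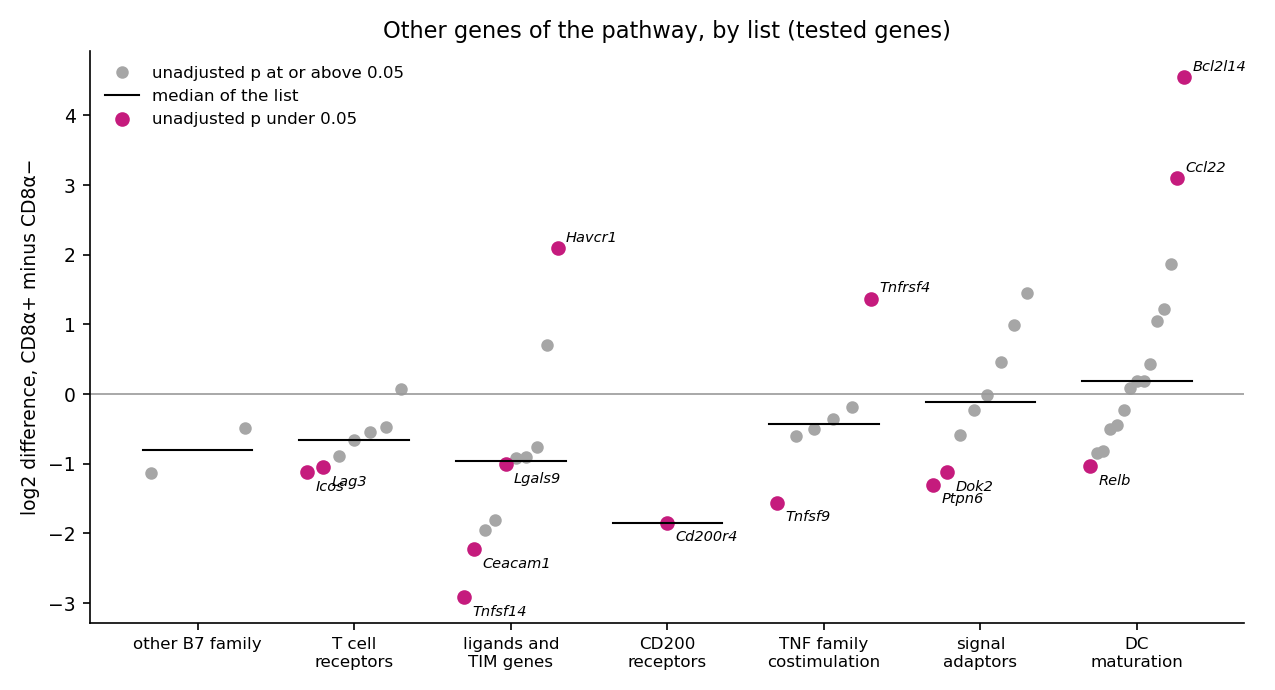
Log2 difference between CD8α+ and CD8α− cells (vertical axis) for the tested genes of the 7 further lists, with genes at an unadjusted p under 0.05 in magenta and named, others in grey, and the median of each list as a black line. Ccl22 lies at 3.10 and Tnfsf14 at -2.91. The points of Bcl2l14, Havcr1, Dok2 and Cd200r4 are differences from a population within background on both arrays, and these genes reached the filter through the other population. Cd200r4 was also within background on CD8α− replicate 1. After quantile normalization 6 of the 7 medians lie below 0 and that of maturation at 0.18. The CD200 receptor median is 1 gene and the other B7 median 2 genes. On the deposited scale the medians of TNF family costimulation (0.15), adaptors (0.71) and maturation (0.85) were above 0, beside 0.67 for all genes.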

How the data were processed

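The values that the authors deposited are linear intensity signals from MAS5, per the submitters' processing notes; the design text names Microarray Suite 5.0 and GeneSpring. The sources used here do not give the scaling of the arrays. They also differ on RNA preparation: the design text describes amplified cDNA from purified mRNA, the labels' protocols cRNA from total RNA.

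Of 45101 probe sets 64 were controls. Of the others 34945 had 1 gene symbol, 932 several and 9160 none; all 10 genes matched the RefSeq gene table by Entrez identifier. Arrays were quantile normalized on the log2 scale, signals raised to a floor of 6.99 (the 25th percentile), and probe sets tested when their mean signal reached the median, 23.0. A gene stood for its brightest tested probe set, leaving out names ending in _x_at where it had another. Groups follow the titles. They were compared over all 22519 tested probe sets with limma 3.58.1 in R 4.3.3 (lmFit, eBayes without trend, two-sided, Benjamini-Hochberg adjustment at 0.05), with 2 residual and 2.48 prior degrees of freedom. Of each further list the genes at unadjusted p under 0.05 are named, at most 4, and others named were picked after their values were seen. An exact permutation test of 2 arrays against 2 cannot give a p below 0.333 and was not used. "At least" folds are the brighter group's mean over the higher of background and own signal in the other. The number of arrays limits the precision. Alternatives were scaling, filter, floor, variance trend, replicate block, probe set choice and leaving out each array. The fit was tested on simulated data with the same spread on all arrays, unlike these, so that test does not cover the wider CD8α− pair.

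The genes, lists and settings were chosen with earlier results of these data known. Replicate numbers come from the titles; the deviations of same-numbered arrays from their group means correlated at r = 0.03 over probe sets, and nothing in the labels pairs them. Figures were drawn with matplotlib 3.10.9.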

Additional observations from a re-analysis of the deposited data

How the results depend on the processing

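No member passed an adjusted p of 0.05 under any alternative except without CD8α− replicate 1, where Btla and Icosl did, as did 1320 of all 10532 genes; over the arrays left out that count ran from 0 to 2. With all 4 arrays, members brighter in CD8α+ cells at unadjusted p numbered 1, and 3 with median centring, where 3479 of 10502 genes passed in either direction. Members dimmer with all 4 arrays numbered 1, and 0 with the signals as deposited, 0 with median centring, 0 with the mean of a gene's probe sets and 2 with an intensity trend. Over all genes 1361 of 10506 passed in either direction with the signals as deposited. Of 10532 genes 2005 passed with the mean of a gene's probe sets and 1835 with an intensity trend. Members whose arrays did not overlap numbered 4, and 8 with the signals as deposited (59.6% of all genes) and 5 with the mean of a gene's probe sets (54.9%), with a range of 4 to 9 over the arrays left out. The 4 arose without CD8α+ replicate 1 or 2, where 66.0% and 67.2% of all genes did not overlap. The 9 arose without CD8α− replicate 1 or 2, where 89.4% and 84.8% of all genes did not overlap. The median difference of the members, -0.05, was -0.51 with a common trimmed mean and 0.30 with the signals as deposited. Without CD8α+ replicate 1 or 2, Btla (1.96 and 2.08) and Icosl (-1.34 and -1.37) lost their unadjusted calls, the spread then resting on the CD8α− pair. The direction of Btla and of Icosl held in each setting run. With a replicate block 1 member was brighter and 1 dimmer, as without it; over all genes 11 then passed adjusted p against 0, and the numbers are not known to pair the arrays. The cause of these shifts was not tested. Signal within background limits Cd200r1, Pdcd1lg2 and the dimmest Cd80 and Icosl probe sets.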
